A study of Mus musculus with 6 samples.

Results

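Basal cells of the mouse airway surface were compared with ciliated and club cells as 1 luminal side, since both face the airway lumen. A gene was taken to follow the comparison when both basal arrays lay above, or both below, all 4 luminal arrays. Of 20315 named genes, 5178 did so, 3066 with the basal arrays above (15.1 percent of all genes) and 2112 with the basal arrays below (10.4 percent). Expression was measured on 6 microarrays, 2 for each cell type, from C57BL/6 mice. No allele, transgene or treatment is given for any group, and the sources used here do not give the number or pooling of animals behind an array. All cells came from the surface airway epithelium, were stained for EpCAM, SSEA1, CD24 and the lectin GSIβ4, and were sorted by flow cytometry: basal cells as EpCAM+ GSIβ4+, club cells (called secretory in the gate) as EpCAM+ SSEA1+, and ciliated cells as EpCAM+ GSIβ4- CD24+. The arrays of a cell type are labelled biological replicates, with nothing on separate animals, so every p-value measures only how far these samples spread, which may be technical.

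Basal cells sit on the basement membrane, are held there by hemidesmosomes, and act as stem cells that give rise to secretory and ciliated cells. Their identity depends on p63, a transcription factor of the p53 family encoded by Trp63, and their cytoskeleton is built from keratin 5 paired with keratin 14 or related keratins. Luminal cells carry an apical surface with mucins, channels and transporters, and divide the work between secretion and host defence in club cells and mucus transport by beating cilia in ciliated cells.

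Values are log2 expression after robust multi-array averaging (RMA), so that 1 unit is a 2-fold difference. A difference is the basal mean minus the mean of the ciliated and club means ± its standard error (2 arrays per type), and a gene is said to be higher or lower in basal cells where limma's adjusted p over all genes was under 0.05. The gap is the distance between the nearest basal and luminal arrays, and is negative where basal cells were lower. In bulk RNA, fewer cells of a type and less RNA per cell cannot be told apart.

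The label was checked against its markers. Trp63 was at 10.96 and 10.91 in the basal arrays, at 6.69 and 7.20 in the ciliated and at 7.25 and 7.03 in the club arrays, a difference of 3.89 ± 0.18 (adjusted p = 4.1e-05). Krt5 was at 12.94 and 13.24 in basal, 7.91 and 9.28 in ciliated and 8.89 and 9.27 in club arrays (4.26 ± 0.35, adjusted p = 0.00026). Both basal arrays stood over 3 units above every luminal array for both genes. Of 19 basal cell markers, 17 were above all luminal arrays and 17 were higher, 13 of them against each luminal type, with a median difference of 2.49 (0.0291 over all genes). Against these counts, 6.39 percent of all genes were higher in basal cells, 2.79 percent were higher against each luminal type, and 15.1 percent were above all luminal arrays. The 2 markers that did not pass, named after their values were seen, were Perp, a p63 target of desmosomes, at 11.66 and 11.22 against 10.41 to 11.09 in luminal arrays, and the galectin gene Lgals7 at 6.17 and 7.24 against 5.91 to 6.30. The 17 and 17 are not the same genes. Perp was separated and not called. Icam1, named likewise, was called higher and overlapped the luminal arrays (12.4 and 11.3 against 9.8 to 11.7). Against club cells alone it did not pass (limma adjusted p = 0.66).

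The averaged comparison called 1298 genes higher (6.39 percent) and 1630 lower (8.02 percent) in basal cells. Of the 3066 genes whose basal arrays lay above, 1200 were also called and 1866 were not; of the 2112 that lay below, 1076 were called and 1036 were not. Leaving out ciliated replicate 1 or 2 gave 850 or 745 higher genes, and leaving out basal replicate 1 or 2 gave 6306 or 4946 genes above and 4195 or 4476 below. Most members were separated by little: the median gap was 0.153 above and 0.167 below in size, and a gap of at least 1 unit was seen for 248 genes above and 140 below. At the edge of the rule, Sympk lay above by 2.34e-05 and Tlr9 by 2.06e-04, while the lower basal array minus the highest luminal array came to -9.73e-05 for Zbtb34 and -1.96e-04 for Jmjd4. Below, Rian was inside by 3.19e-05 and Pdhb by 1.62e-04, and Eno2 and Nmb, just outside, had a basal array level with a luminal one. The balance of directions depended on scaling: 59.2 percent of separated genes lay above with the deposited values, 49.7 percent with each array centred on its median and 48.6 percent with cyclic loess.

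A stricter set holds the genes that differed from ciliated and from club cells separately and in the same direction. It had 566 genes higher in basal cells (2.79 percent) and 367 lower (1.81 percent), all of them separated. The count of higher genes was 342 without ciliated replicate 1, 323 without ciliated replicate 2, 264 without club replicate 1 and 292 without club replicate 2, and that of lower genes 216, 194, 231 and 209. Their median difference was 1.44 units in size for the higher and 1.61 for the lower genes, and 368 and 239 differed by at least 1 unit from each luminal type. With the ciliated and club arrays pooled as 1 group, whose spread then holds the difference between them, 317 genes were higher and 133 lower in the averaged comparison. That fit also moved 32 of the 36 counts of at least 3 called list members given below by over 1.5 times, from 17 to 11 for the basal markers and from 21 to 1 for the cell cycle genes.

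The largest gap was that of Defb1, a beta-defensin, an antimicrobial peptide. It was at 10.77 and 11.29 in the basal arrays, 5.77 and 5.51 in the ciliated and 5.98 and 5.64 in the club arrays (5.30 ± 0.20, adjusted p = 3.9e-05). Its luminal values lie near the lower quartile of the arrays (5.55 to 5.69), as do the basal values of Serpinb11 below. Without detection calls neither is shown to be above background, and no fold is given. The same limit holds for other genes with values near or under that quartile, such as Agr3, Sult1c1 and Wnt5a in basal arrays and Dsc3 and Cldn1 in luminal arrays. Dcn, the proteoglycan decorin, followed at 12.29 and 12.13 against 6.64 to 8.03 in the luminal arrays (4.65 ± 0.35). The ciliated and club means were near each other for Defb1 and Dcn, and neither basal array came within 4 units of a luminal one. Ccdc3, a secreted protein gene, was at 11.79 and 11.43 in basal and 6.87 to 7.48 in luminal arrays, Trim29, a tripartite-motif gene of stratified epithelia, at 11.39 and 11.93 against 6.69 to 7.64, and Serpinb5, the serpin maspin, at 10.91 and 10.47 against 6.0 to 6.89. Together with Lamb3, Krt5 and Trp63 they are the 8 genes with the largest gaps whose ciliated and club means were within 0.5 units of each other. The other genes of the 15 largest gaps were Igfbp7, an insulin-like growth factor binding protein gene, Vsnl1, a calcium sensor gene, Ltbp4, which encodes a binding protein of latent TGF-beta, Sparc, a matricellular protein gene, Fads2, a fatty acid desaturase gene, Axl, a receptor tyrosine kinase gene, and Cd109, a membrane protein gene. Their gaps ran from 3.30 for Cd109 to 3.75 for Igfbp7.

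**Figure D1:**
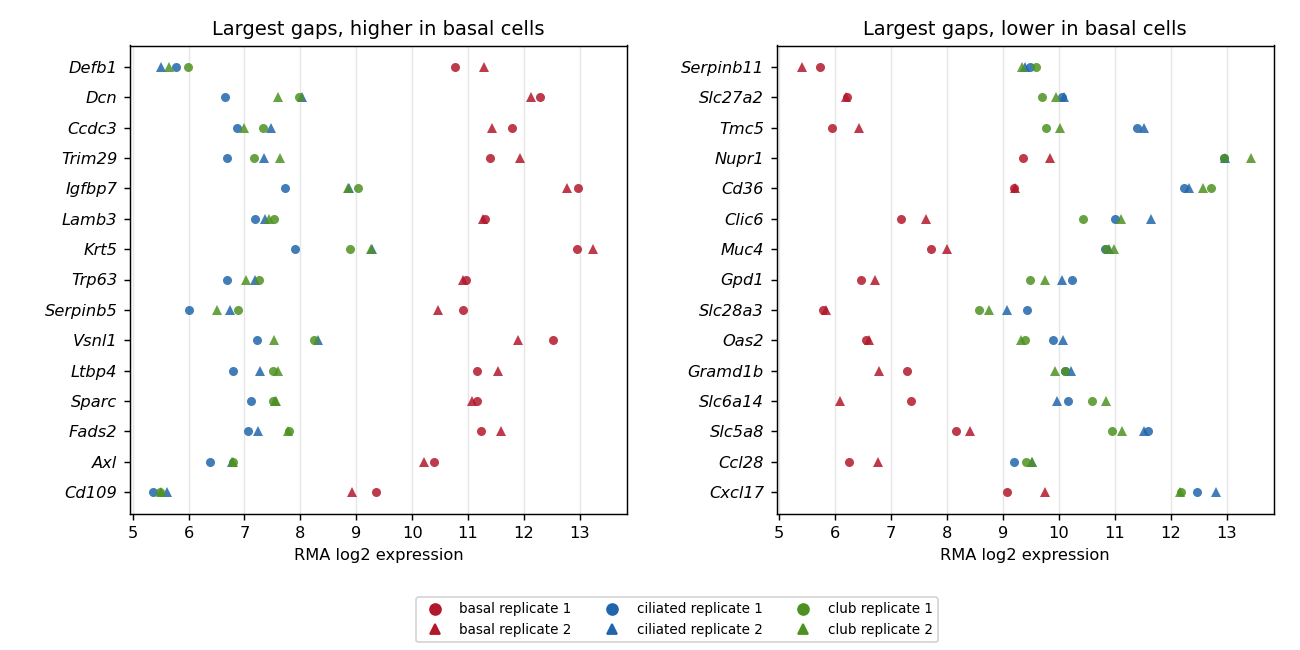
RMA log2 expression (x axes) of the 15 named genes with the largest gap in each direction (y axes), with 1 point per array, colours for the cell types and circles and triangles for replicates 1 and 2. In the left panel the basal arrays of Defb1 sit at 10.77 and 11.29 and the luminal arrays at 5.98 or below; in the right panel those of Serpinb11 sit at 5.72 and 5.40 and the luminal arrays at 9.35 or above.

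In the other direction the largest gap was that of Serpinb11, an intracellular serpin gene, at 5.72 and 5.40 in basal, 9.49 and 9.39 in ciliated and 9.59 and 9.35 in club arrays (-3.89 ± 0.16, adjusted p = 3.9e-05). Slc27a2, a fatty acid transporter and very-long-chain acyl-CoA synthetase gene, was at 6.21 and 6.19 in basal, 10.05 and 10.09 in ciliated and 9.71 and 9.95 in club arrays (-3.75 ± 0.14). The 4 luminal arrays of each lay within 0.5 units of one another, and both basal arrays were over 3 units below. Nupr1, a stress-responsive chromatin protein gene, was at 9.35 and 9.84 against 12.96 to 13.45. Cd36, a receptor for fatty acids, was at 9.19 and 9.22 against 12.23 to 12.73. Muc4, a membrane-bound mucin, was at 7.71 and 8.01 against 10.82 to 10.99. Each of the 3 had ciliated and club means within 0.5 units, as had Gramd1b, which encodes a cholesterol transporter between membranes (7.29 and 6.79 against 9.92 to 10.23), and the chemokine genes Ccl28 (6.25 and 6.76 against 9.20 to 9.53) and Cxcl17 (9.07 and 9.76 against 12.18 to 12.82). These 8 have the largest gaps among genes that ciliated and club cells held at a like level and basal cells held low.

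The rest of the 15 largest gaps were Tmc5, a transmembrane channel-like gene, Clic6, a chloride intracellular channel gene, Gpd1, a glycerol phosphate dehydrogenase gene, the nucleoside transporter Slc28a3, Oas2, an interferon-induced sensor of double-stranded RNA, the amino acid transporter Slc6a14 and the monocarboxylate transporter Slc5a8. Their gaps ran from -2.55 for Slc5a8 to -3.35 for Tmc5. Tmc5 was at 5.95 and 6.42 in basal, 9.77 and 10.03 in club and 11.39 and 11.53 in ciliated arrays, so its difference from basal cells was larger in ciliated cells (ciliated minus club 1.56, adjusted p = 0.0021).

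The upstream sequences of a keratin and a hemidesmosome gene higher in basal cells and of the first 2 genes lower in them are shown so that a structural gene of basal cells and a gene low in them can be read side by side; these 4 were chosen after their values were seen. They are the 250 bases before the annotated gene start from RefSeq, build GRCm38.p6, written along the strand of the gene. Krt5 lies at chr15:101712906-101713155 (minus strand), Col17a1 at chr19:47692043-47692292 (minus strand), Serpinb11 at chr1:107362064-107362313 (plus strand) and Slc27a2 at chr2:126552774-126553023 (plus strand). Capitals mark CACCTG or its reverse complement CAGGTG, the letters that repressors of the Snail family bind.
Krt5: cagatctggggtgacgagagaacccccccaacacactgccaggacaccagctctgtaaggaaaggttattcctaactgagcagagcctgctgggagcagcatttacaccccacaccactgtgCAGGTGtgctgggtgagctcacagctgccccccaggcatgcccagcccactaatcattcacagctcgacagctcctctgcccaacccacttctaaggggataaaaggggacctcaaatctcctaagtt
Col17a1: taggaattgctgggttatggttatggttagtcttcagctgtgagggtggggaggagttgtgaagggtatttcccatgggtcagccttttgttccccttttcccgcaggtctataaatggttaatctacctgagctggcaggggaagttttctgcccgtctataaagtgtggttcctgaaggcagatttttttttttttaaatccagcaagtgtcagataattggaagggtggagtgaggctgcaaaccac
Serpinb11: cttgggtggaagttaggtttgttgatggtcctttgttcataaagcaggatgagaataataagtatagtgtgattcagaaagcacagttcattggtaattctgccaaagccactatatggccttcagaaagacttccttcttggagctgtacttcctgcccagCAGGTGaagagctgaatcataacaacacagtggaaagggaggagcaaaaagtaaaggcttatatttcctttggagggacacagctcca
Slc27a2: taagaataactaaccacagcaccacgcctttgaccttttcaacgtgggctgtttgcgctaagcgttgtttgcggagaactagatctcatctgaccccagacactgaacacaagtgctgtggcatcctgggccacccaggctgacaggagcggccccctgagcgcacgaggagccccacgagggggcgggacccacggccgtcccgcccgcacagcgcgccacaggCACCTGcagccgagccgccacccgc
The match began 128 bases before the start in Krt5, 88 in Serpinb11 and 25 in Slc27a2, and Col17a1 had none in this window. Other genes lower in basal cells, Muc4, Nupr1 and Cd36, had no match in the same window. Among higher genes Axl had none, and Lamb3 had a match before an annotated start but none before another. The shown genes are thus no sample of either direction. Snai2, a Snail family gene among the basal markers, was at 9.95 and 9.38 in basal and 6.03 to 6.79 in luminal arrays (3.39 ± 0.25).

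Across the genes, 8 motifs were searched on both strands from 250 bases before to 50 after the start, in 19195 promoters of 15607 measured genes. Of these promoters, 540 belong to 422 genes higher against each luminal type and 368 to 278 genes lower. CACCTG stood in 19.8 percent of all promoters, 16.3 percent of those higher and 25 percent of those lower in basal cells. The p53 family letters CATGNNNNNNCATG were in 0.448, 0.185 and 0.272 percent, which is 86, 1 and 1 promoters, too few to compare. GTTGCCAT, bound by RFX factors of ciliogenesis, was in 1.22, 0.370 and 2.99 percent (234, 2 and 11 promoters). TTGCNNAA of the C/EBP family was in 9.74, 6.85 and 12 percent and AACNGGTT of the Grainyhead family in 1.91, 1.67 and 3.26 percent. TGANTCA of AP-1 was in 6.84, 7.78 and 8.42 percent, AGGAAGT of ETS factors in 8.66, 7.04 and 10.1 percent and TGTTTAC of forkhead factors in 3.01, 2.22 and 2.99 percent. These are shares of windows that hold the letters, and say nothing of binding.

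Genes of attachment to the basement membrane were higher in basal cells. Counts in this and later lists stand against all genes, of which 6.39 percent were higher and 8.02 percent lower. Against each luminal type these shares were 2.79 and 1.81 percent. Of 11 genes of hemidesmosomes and their laminin, 10 were above all luminal arrays and 9 were higher, 5 of them against each luminal type (median 0.949). Without ciliated replicate 2 the count of higher genes was 5. Lamb3, the beta chain of the anchoring laminin, was at 11.30 and 11.26 in basal, 7.19 and 7.37 in ciliated and 7.53 and 7.43 in club arrays (3.90 ± 0.13). Col17a1, the transmembrane collagen of hemidesmosomes, was at 10.16 and 10.13 in basal and 7.09 to 7.35 in luminal arrays (2.97 ± 0.13). Itgb4, the integrin chain that binds this laminin, was at 11.73 and 11.80 against 9.27 to 10.04 (2.02 ± 0.15). No basal array overlapped a luminal one in any of the 3. The plakin Dst, named after its values were seen, did not pass (0.95 ± 0.30, adjusted p = 0.082).

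Of 25 measured genes of the wider matrix and its integrins, 12 were higher (9 against each luminal type) and 2 lower, with a median of 0.452. Sparc was at 11.15 and 11.06 in basal and 7.12 to 7.56 in luminal arrays, and fibronectin Fn1 at 9.40 and 8.44 against 6.25 to 7.05. The lower pair, named after their values were seen, were Cyr61 and Ctgf, matricellular genes known as targets of YAP, at -1.24 ± 0.25 and -0.91 ± 0.18. Thbs1, a thrombospondin gene, had basal arrays far apart (13.29 and 10.34) against 12.96 to 13.80 in luminal arrays and did not pass (adjusted p = 0.19).

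Keratin and desmosome genes went both ways. Of 23 genes, 14 were higher (10 against each luminal type) and 4 lower, with a median of 0.806; the lower count was 2 without basal replicate 2 or without ciliated replicate 1. Krt17 was at 12.18 and 12.71 in basal, 7.40 and 9.54 in ciliated and 8.23 and 9.51 in club arrays (3.77 ± 0.59), and in both luminal types replicate 2 was over 1 unit above replicate 1. Krt14, the usual partner of Krt5, was at 8.66 and 9.28 against 6.73 to 7.02 (2.11 ± 0.20). Dsc3, a desmosomal cadherin of stratified epithelia, was at 9.53 and 8.13 against 5.0 to 5.58 (3.56 ± 0.36). The keratins of simple epithelia went the other way, named here after their values were seen: Krt18 was at 12.40 and 11.94 in basal and 13.21 to 13.65 in luminal arrays (-1.30 ± 0.20), and its partner Krt8 at 13.40 and 13.09 against 13.86 to 14.25 (-0.77 ± 0.15). Krt19 and Krt7 did not pass (-0.09 ± 0.29 and 0.41 ± 0.20).

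Of 25 genes linked to p63 in skin or other epithelia, 16 were higher, 10 of them against each luminal type, and 2 were lower (median 1.06). The list overlaps the basal marker, attachment and keratin lists, in Krt5, Jag2 and Col17a1 for example, and is no separate evidence. Jag2, a Notch ligand, was at 11.02 and 11.06 in basal, 8.14 and 7.87 in ciliated and 7.10 and 6.52 in club arrays. Named after their values were seen, the lower genes were Zfp750, a p63 target of epidermal differentiation (-1.28 ± 0.25), and the p63 relative Trp73, at 6.61 and 6.71 in basal, 9.18 and 9.70 in ciliated and 6.03 and 6.28 in club arrays, where basal cells lay below the ciliated and above the club arrays.

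Junctions at the apical side showed no common direction. Of 26 tight and apical junction genes, 4 were higher and 6 lower, 2 of the higher genes and none of the lower against each luminal type (median -0.218). Over all genes, 6.39 percent were higher and 8.02 percent lower, with 2.79 and 1.81 percent against each luminal type. The lower count was 2 without basal replicate 2, ciliated replicate 1 or club replicate 2, 1 without ciliated replicate 2, and 3 with quantile normalization applied again. Amotl1, an angiomotin family gene, was at 9.73 and 9.75 in basal and 6.53 to 6.84 in luminal arrays (3.11 ± 0.13), and the claudin Cldn1 at 7.64 and 6.96 against 5.03 to 5.74 (1.95 ± 0.28). Cldn3, named after its values were seen, was lower in basal cells (-1.68 ± 0.34).

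Notch signalling directs basal daughters towards the secretory fate: ligands on one cell activate receptors on its neighbour, which then switch on Hes and Hey repressors. Of 20 pathway genes, 3 were higher and 3 lower, against 6.39 and 8.02 percent of all genes. The median was -0.0707, and 0.0194 with quantile normalization applied again. Jag2 was higher against each luminal type, and more so against club cells (4.23) than against ciliated cells (3.03; ciliated minus club 1.19, adjusted p = 0.01). The ligand Dll1 was at 9.92 and 8.95 in basal and 6.39 to 6.69 in luminal arrays (2.87 ± 0.26), and the receptor Notch1 at 10.62 and 10.54 against 8.60 to 8.99 (1.78 ± 0.13). Lower were, each seen before it was named, the target Hes1 (10.11 and 10.05 in basal, 11.20 to 11.84 in luminal arrays), the receptor Notch2 (9.31 and 9.36 in basal, 10.01 and 9.94 in ciliated, 11.17 and 11.33 in club) and Notch3, whose basal arrays (7.48 and 7.53) overlapped the ciliated (7.59 and 7.32) and lay below the club arrays (8.88 and 9.11).

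Of 33 Wnt pathway genes, 10 were higher and 1 lower in basal cells, 6 and 1 against each luminal type (median 0.337). The shares of all genes were 6.39 and 8.02 percent, and 2.79 and 1.81 percent against each luminal type. The count of higher genes was 6 without either ciliated or either club array. Among ligands, Wnt4 was at 10.17 and 10.64 in basal, 8.89 and 8.90 in ciliated and 8.04 and 7.88 in club arrays (1.98 ± 0.17), and Wnt10a at 9.07 and 9.62 in basal, 7.67 and 7.52 in ciliated and 7.19 and 7.35 in club arrays (1.91 ± 0.18). The lower ligand, named after its values were seen, was Wnt5a, at 5.14 and 5.52 in basal and 6.24 to 7.46 in luminal arrays (-1.46 ± 0.16). Among receptors, the Frizzled genes Fzd8, Fzd1 and Fzd2, named likewise, were higher by 1.60 ± 0.13, 1.28 ± 0.16 and 1.24 ± 0.15. The secreted inhibitor Sfrp1 had basal arrays far apart, at 10.91 and 8.26, against 6.30 and 6.31 in ciliated and 7.90 and 7.45 in club arrays (2.60 ± 0.62, adjusted p = 0.032). Axin2 and Lef1, common readouts of beta-catenin activity, did not pass (0.22 ± 0.18 and 0.03 ± 0.13).

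Of 28 genes of TGF-beta and BMP signalling, 9 were higher and none lower, 5 of them against each luminal type (median 0.469); 5 were higher without ciliated replicate 2. The ligand Tgfb1 was at 9.48 and 9.20 in basal and 6.78 to 7.48 in luminal arrays (2.20 ± 0.20), the induced matrix protein gene Tgfbi at 9.98 and 9.67 against 6.60 to 6.98 (3.01 ± 0.14), and Fstl1, a secreted follistatin-like gene, at 7.77 and 8.31 against 5.53 to 5.91 (2.29 ± 0.19). The receptors Tgfbr1, Tgfbr2 and Bmpr2 did not pass (0.23 ± 0.23, -0.50 ± 0.19 and 0.05 ± 0.23). Of 29 growth factor genes, with receptors of the EGF, FGF, HGF and TAM families, their ligands and the IGF binding proteins, 10 were higher and none lower, 8 against each luminal type (median 0.213). Igfbp7 was at 12.96 and 12.78 in basal, 7.72 and 8.87 in ciliated and 9.03 and 8.84 in club arrays, Axl at 10.39 and 10.20 against 6.38 to 6.79 in luminal arrays, and Igfbp3 at 10.36 and 10.50 in basal, 6.83 and 7.34 in ciliated and 8.03 and 8.44 in club arrays. Egfr and Fgfr2, named after their values were seen, were higher by 1.62 ± 0.23 and 1.57 ± 0.14, while Erbb2 and Erbb3 did not pass (-0.35 ± 0.20 and -0.37 ± 0.21).

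Of 29 cell cycle genes, 24 were above all luminal arrays and 21 were higher, 5 against each luminal type, and none was lower (median 0.882). The count of higher genes was 9 without basal replicate 2, 11 without ciliated replicate 1, 8 without ciliated replicate 2 and 12 without club replicate 2. Mki67, the proliferation antigen, was at 8.28 and 8.04 in basal, 7.43 and 6.97 in club and 6.11 and 6.33 in ciliated arrays. The replication helicase gene Mcm2 was at 8.27 and 9.06 in basal, 7.34 and 7.71 in club and 7.21 and 7.24 in ciliated arrays, and the cyclin gene Ccnb2, at 9.72 and 9.20 in basal, 9.33 and 8.58 in club and 7.79 and 6.38 in ciliated arrays, overlapped the club arrays and did not pass (adjusted p = 0.055). Of 22 measured ribosomal protein genes, 21 were above all luminal arrays and 19 were higher, 4 against each luminal type (median 1.03); 15 were also higher in club than in ciliated cells. Rps12 was at 11.69 and 11.77 in basal, 10.68 and 10.68 in club and 9.34 and 8.90 in ciliated arrays, Rpsa at 11.97 and 12.02 in basal, 11.26 and 11.13 in club and 10.13 and 9.70 in ciliated arrays, and Rps19 at 10.73 and 10.86 in basal, 9.95 and 9.93 in club and 9.18 and 8.56 in ciliated arrays. Ribosomal protein genes have many near-identical pseudogenes, and array probes may bind their copies. Of 25 translation and nucleolar factors, 7 were higher and none was higher against each luminal type (median 0.426). Leaving out any 1 array gave 2 to 4 of these calls, and the initiation factors Eif3f (0.92 ± 0.19) and Eif4b (0.83 ± 0.21) were among the 7.

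**Figure D2:**
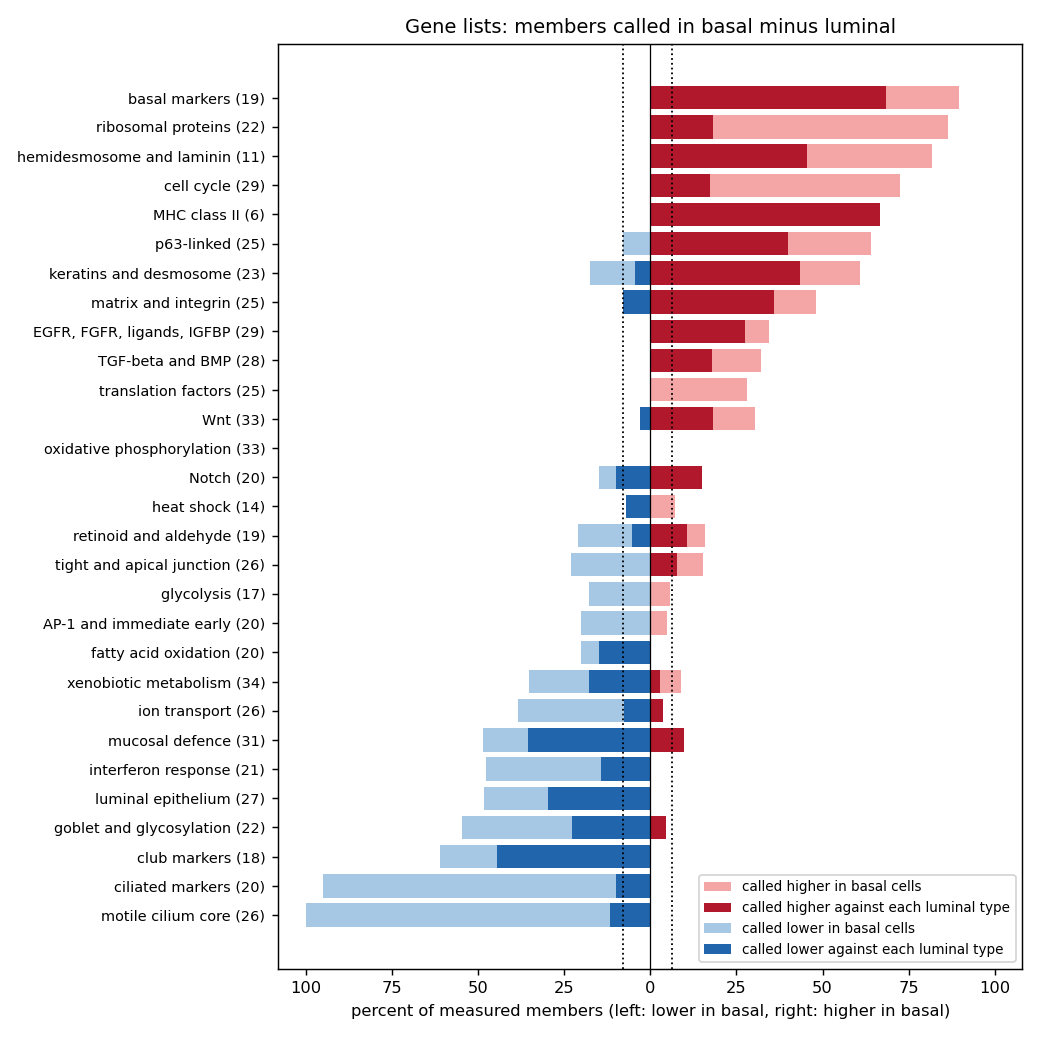
Percent of the measured members of gene lists (y axis, number of measured members in parentheses) that were called lower (left) or higher (right) in basal cells. The lists of fibroblast, muscle, endothelial, leukocyte, chondrocyte and Schwann, tuft, alveolar and erythroid genes are not drawn. Pale bars are the averaged comparison, dark bars the calls against each luminal type, and dotted lines the shares of all genes called higher (6.39 percent) and lower (8.02 percent). All 26 motile cilium genes were lower in the averaged comparison and 3 of them against each luminal type, whereas 13 of 19 basal markers were higher against each.

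MHC class II genes, which present antigen to CD4+ T cells and which some epithelia also express, were higher in basal cells: 4 of 6 measured genes were higher, all 4 against each luminal type (median 2.36). H2-Aa was at 9.20 and 8.28 in basal and 5.39 to 5.99 in luminal arrays (3.05 ± 0.27), H2-Ab1 at 9.0 and 8.90 against 6.18 to 6.93 (2.43 ± 0.18), and Cd74, the invariant chain, at 10.69 and 9.76 against 6.69 to 7.99 (2.89 ± 0.39). Their transactivator Ciita, named after its values were seen, was at 6.11 and 6.07 in basal and 6.05 to 6.26 in luminal arrays. Of 16 leukocyte markers, 4 were also higher in basal cells and 1 was lower, against 6.39 and 8.02 percent of all genes. Laptm5, a lysosomal gene of blood cells, was at 7.45 and 7.36 against 5.86 to 6.11 and Fcer1g, an Fc receptor chain, at 7.33 and 6.84 against 5.51 to 6.23; Cd53 (1.09 ± 0.19) and Tyrobp (1.08 ± 0.21) were the others. The pan-leukocyte gene Ptprc (0.25 ± 0.16), Csf1r (0.01 ± 0.14), Cd68 (-0.29 ± 0.34) and Cd3e (0.09 ± 0.16) did not pass, and Lyz2, which club cells also express, was lower (-2.11 ± 0.26). The mean over the 16 markers was 6.65 and 6.50 in the basal, 6.50 and 6.34 in the ciliated and 6.27 and 6.24 in the club arrays. Complement and macrophage genes outside the list, chosen after their values were seen, were higher as well: C1qb by 2.45 ± 0.35, C1qc by 1.20 ± 0.18, C1qa by 0.90 ± 0.16 and Adgre1 by 0.62 ± 0.14. The part of leukocyte RNA in the MHC class II difference was not tested.

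Fibroblast markers stand beside Dcn, which is one of them. Of 18, 3 were higher in basal cells (6.39 percent of all genes), all against each luminal type (2.79 percent of all genes), and none was lower (median 0.156). They were Dcn, the fibulin Fbln1 (9.17 and 9.50 in basal, 6.66 to 7.09 in luminal arrays) and S100a4 (7.26 and 7.46 against 6.26 to 6.45). The defining collagens and other markers did not pass: Col1a1 was at 7.06 and 7.07 in basal and 6.88 to 7.21 in luminal arrays, Col1a2 differed by 0.17 ± 0.14, Col3a1 by 0.20 ± 0.13, Pdgfra by 0.25 ± 0.15 and Lum by -0.10 ± 0.13. The mean over the 18 was 7.20 and 7.22 in the basal, 6.78 and 6.75 in the ciliated and 6.46 and 6.50 in the club arrays, and its part in the Dcn difference was not tested. Among 12 muscle and myoepithelial genes the 2 higher ones were Krt14 and Mylk (0.62 ± 0.13), and Acta2 and Myh11, named after their values were seen, differed by -0.19 ± 0.36 and -0.23 ± 0.14. None of 12 endothelial, 10 chondrocyte and Schwann or 4 measured erythroid and platelet genes passed in limma (0, 1 and 0 at an unadjusted p under 0.05). Of 8 alveolar type 2 markers 4 were lower and 1 higher, of which Sftpc stood out in ciliated arrays (9.17 and 8.36, against 5.21 and 5.27 in basal and 5.27 and 5.47 in club) and Sftpb in club arrays (10.39 and 10.98, against 7.85 and 7.89 in basal and 8.08 and 8.39 in ciliated). Of 14 tuft, neuroendocrine and ionocyte markers 1 was lower, the ionocyte gene Ascl3 (-1.05 ± 0.18). This count is near the share of all genes that were lower (8.02 percent).

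**Figure D3:**
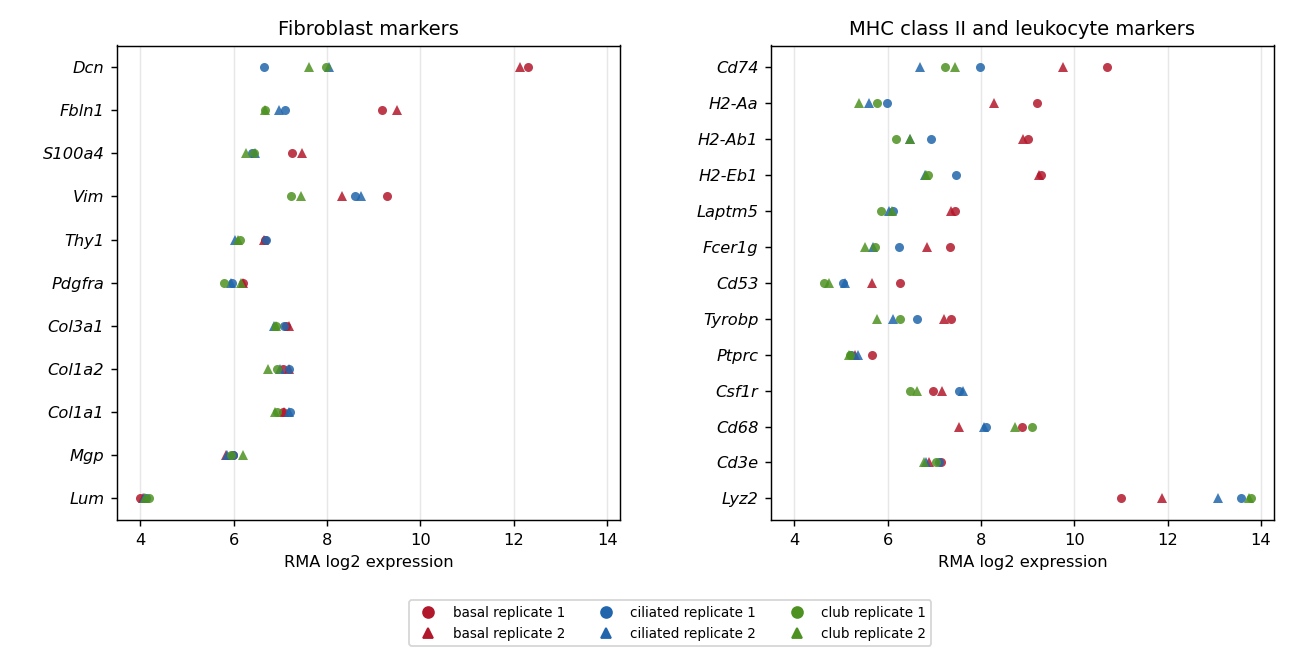
RMA log2 expression (x axes) of selected fibroblast markers (left) and selected MHC class II and leukocyte markers (right), with 1 point per array, colours for the cell types and circles and triangles for replicates 1 and 2. Not all members of the lists (18 fibroblast, 6 MHC class II and 16 leukocyte genes measured) are drawn. The basal arrays of Dcn sit at 12.29 and 12.13 while Col1a1 and Lum show all 6 arrays together; the basal arrays of Cd74 and H2-Aa stand above all luminal arrays while those of Ptprc and Cd3e do not.

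The genes low in basal cells are described next, by role. Of 27 genes of luminal epithelium, 13 were lower in basal cells and none higher, 8 against each luminal type (median -0.546; 8.02 and 1.81 percent of all genes were lower by these calls). After Muc4, Prom1, which marks apical protrusions, was at 6.97 and 7.24 in basal, 10.95 and 11.12 in ciliated and 9.18 and 9.37 in club arrays (-3.05 ± 0.15). The cadherin-related Cdhr3 was at 5.92 and 6.86 in basal, 13.03 and 12.84 in ciliated and 7.43 and 7.36 in club arrays, so that its difference lay almost wholly between ciliated cells and the others (-6.54 against ciliated, -1.0 against club cells). Members named after their values were seen include the mucins Muc16 (-2.78 ± 0.15) and Muc20 (-2.13 ± 0.18), the sort antigen gene Cd24a (11.91 and 10.68 in basal, 12.76 to 13.58 in luminal arrays) and the endoderm transcription factor Foxa2 (7.02 and 7.18 against 7.74 to 8.17). Foxa1, Grhl2 and Krt19 did not pass (0.28 ± 0.14, 0.18 ± 0.13 and -0.09 ± 0.29), and Epcam, required in every gate, differed by -0.69 ± 0.22 (adjusted p = 0.081).

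Genes of mucosal defence were more often lower than higher in basal cells. Of 31 genes, 15 were lower in basal cells, 11 against each luminal type, and 3 were higher (median -0.877). Pigr, which carries immunoglobulin A into the lumen, was at 7.97 and 8.06 in basal, 10.57 and 10.23 in ciliated and 12.57 and 12.69 in club arrays (-3.51 ± 0.15). Bpifb1, a secreted lipid-binding protein gene of the upper airway, was at 7.33 and 10.57 in basal arrays, which stand over 3 units apart, at 12.58 and 11.87 in ciliated and at 13.74 and 13.98 in club arrays (-4.10 ± 0.76, adjusted p = 0.011). The chemokines Ccl28 and Cxcl17 also belong here. Other lower members, named after their values were seen, were Lcn2 (-3.25 ± 0.34), the complement factor Cfb (-2.89 ± 0.22) and the lectin Reg3g (-1.83 ± 0.15). Defb1 and the oxidase pair Duox1 and Duoxa1 made up the 3 higher genes. Duox1 was at 7.53 and 7.65 in basal and 5.58 to 6.06 in luminal arrays, and its maturation factor Duoxa1 at 8.39 and 8.76 against 6.15 to 6.31; Duox2 and Duoxa2 did not pass (0.32 ± 0.14 and 0.39 ± 0.24).

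Of 22 goblet cell and glycosylation genes, 12 were lower (5 against each luminal type) and 1 higher (median -0.874). The gel-forming mucin Muc5b was at 7.73 and 9.14 in basal, 11.57 and 10.72 in ciliated and 13.26 and 13.68 in club arrays. Agr3, a protein disulfide isomerase gene, was at 4.07 and 5.07 in basal, 11.83 and 11.42 in ciliated and 6.35 and 6.26 in club arrays, the calcium-activated channel regulator Clca1 at 6.82 and 7.90 in basal, 9.29 and 7.94 in ciliated and 11.28 and 11.38 in club arrays. Muc5b was thus highest in club and Agr3 in ciliated cells, while both were below every luminal array in basal cells. The higher gene, named after its values were seen, was Clca2, at 8.50 and 7.55 in basal and 5.27 to 5.81 in luminal arrays (2.46 ± 0.25). Of 18 club cell markers, 11 were lower in basal cells, 8 against each luminal type and therefore also below ciliated cells (median -1.26). Cckar, the cholecystokinin receptor, was at 5.68 and 7.13 in basal, 9.07 and 9.31 in ciliated and 10.49 and 10.72 in club arrays, and the secretoglobin Scgb1a1, named after its values were seen, at 13.05 and 13.02 in basal, 14.20 and 13.87 in ciliated and 14.31 and 13.98 in club arrays. Its luminal values lie near the array maxima (14.40 to 14.54), where differences may be compressed. Its ciliated minus club difference did not pass (-0.11, limma adjusted p = 0.78). Cyp2f2, Cbr2 and Bpifa1, also near the maxima, did not pass in basal minus luminal. Of the 18 markers, 5 were higher in club than in ciliated cells. The mean over the 18 was 10.1 and 10.7 in the basal, 11.6 and 11.3 in the ciliated and 12.3 and 12.3 in the club arrays. The part of club cell RNA carried into the basal and ciliated samples was not tested.

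Of 26 ion and water transport genes, 10 were lower, 2 against each luminal type, and 1 was higher (median -0.513). The potassium channel gene Kcnq1 was at 7.24 and 7.06 in basal and 8.90 to 9.96 in luminal arrays (-2.21 ± 0.21), and the sodium-proton exchanger Slc9a4 at 6.41 and 6.47 in basal, 7.03 and 6.94 in ciliated and 9.21 and 9.02 in club arrays. The exception was the water and glycerol channel Aqp3, a basal marker, at 12.55 and 12.62 in basal, 8.29 and 8.52 in ciliated and 9.66 and 9.47 in club arrays (3.60 ± 0.14). Of 20 fatty acid oxidation genes, 4 were lower (8.02 percent of all genes), 3 against each luminal type (1.81 percent of all genes), and none higher (median -0.268). Among them were the acyl-CoA synthetase Acsl1 (-1.31 ± 0.13), the medium-chain dehydrogenase Acadm (-0.90 ± 0.15) and the electron transfer flavoprotein Etfa, named after its values were seen (-0.66 ± 0.13). Without basal replicate 1 or ciliated replicate 2 the count was 2, and without basal replicate 2 it was 7.

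Of 34 measured xenobiotic enzymes, 12 were lower and 3 higher in basal cells (6 and 1 against each luminal type, median -0.256). For this and the next lists, 8.02 percent of all genes were lower and 6.39 percent higher. Against each luminal type the shares were 1.81 and 2.79 percent. The sulfotransferase Sult1c1 was at 4.77 and 5.52 in basal, 7.23 and 7.02 in ciliated and 10.69 and 10.80 in club arrays, and the aldehyde dehydrogenase Aldh3b1 at 7.70 and 8.57 in basal, 12.93 and 13.10 in ciliated and 10 and 10.82 in club arrays. Ugt2b34, a glucuronosyltransferase gene, was higher in basal cells (at 11.57 and 10.80 in basal, 7.22 and 7.56 in ciliated and 10.20 and 9.47 in club arrays). With quantile normalization applied again 6 of the enzymes were higher. Of 19 retinoid and aldehyde genes, 3 were higher and 4 lower, with a median of 0.0343 that turned to -0.0124 with quantile normalization applied again. With that setting 5 were higher. The retinal dehydrogenase Aldh1a1 was at 12.19 and 12.63 in basal and 13.77 to 14.01 in luminal arrays (-1.47 ± 0.16). The plasma retinol carrier Rbp4 was high in club arrays alone, at 10.33 and 10.78, against 7.87 and 8.03 in basal and 8.13 and 8.21 in ciliated arrays. Of 17 glycolysis genes, 3 were lower and 1 higher, with Ldhb at -1.75 ± 0.28, Aldoc at -1.59 ± 0.20 and the lactate transporter Slc16a3, high in ciliated arrays alone, at 8.95 and 8.96 against 6.88 and 6.51 in basal and 6.40 and 6.56 in club arrays. None of 33 oxidative phosphorylation genes passed in limma, where 3 had an unadjusted p under 0.05 (median -0.0657, and 0.0783 with quantile normalization applied again).

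Of 21 measured interferon-stimulated genes, 10 were lower and none higher, 3 against each luminal type (median -0.590). Leaving out ciliated replicate 1 gave 6 lower genes, and leaving out ciliated replicate 2 gave 5. Oas2 was at 6.55 and 6.61 in basal, 9.89 and 10.07 in ciliated and 9.39 and 9.33 in club arrays, and Ifi44 at 9.02 and 8.62 in basal, 10.74 and 11.04 in ciliated and 11.71 and 11.17 in club arrays. Ifit3 was at 6.13 and 7.01 in basal, 9.32 and 9.25 in ciliated and 7.41 and 7.57 in club arrays, with its difference larger in ciliated cells (ciliated minus club 1.80, adjusted p = 0.0044). Irf7, the amplifying transcription factor, named after its values were seen, was at 8.70 and 8.38 in basal and 9.50 to 10.32 in luminal arrays.

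Genes of the early stress response, which cell dissociation can switch on, gave counts that rest on single arrays. Of 20 AP-1 and immediate early genes, 4 were lower and 1 higher in basal cells, none against each luminal type (median -0.483). The number lower was 9 without basal replicate 1, 1 without basal replicate 2 or club replicate 2, 0 without ciliated replicate 2 (11 of the 20 had an unadjusted p under 0.05 with all arrays), 1 with quantile normalization applied again, and 2 with cyclic loess or array weights. Myc, a driver of growth and division, was the higher gene, at 12.36 and 10.85 in basal, 7.87 and 8.72 in ciliated and 9.62 and 10.34 in club arrays (2.47 ± 0.44, adjusted p = 0.0095). Klf2 was at 8.42 and 8.29 in basal and 8.77 to 10.65 in luminal arrays (-1.30 ± 0.34, adjusted p = 0.045), and Klf4, at 11.66 and 10.09 in basal and 8.99 to 10.63 in luminal arrays, did not pass. Of 14 heat shock genes, 1 was lower and 1 higher (median -0.556), near the shares of all genes (8.02 percent lower and 6.39 percent higher). The chaperone gene Hsph1 was at 9.05 and 8.84 in basal, 11.46 and 11.27 in ciliated and 10.19 and 9.97 in club arrays (-1.78 ± 0.15), and Hsp90aa1 did not pass (-1.03 ± 0.30, adjusted p = 0.065).

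A further group of genes entered the averaged comparison through 1 luminal type. Of the 1630 genes called lower in basal cells, 554 were not separated, and 549 of these also differed between ciliated and club cells, 461 with ciliated and 88 with club cells higher. Of the 98 genes called higher and not separated, 94 differed between the luminal types, 81 with club cells higher. Over all genes, 15.4 percent (3126) differed between ciliated and club cells, a count that was 1732 without ciliated replicate 1, 1587 without ciliated replicate 2 and 1879 without club replicate 1. Motile cilium genes are the clearest case: all 26 were lower in basal than in the mean of luminal cells (median -2.57) and all 26 were higher in ciliated than in club cells, while 16 lay below all luminal arrays and 3 were lower against each type. Spag6l, of the central pair of the axoneme, was at 6.05 and 6.51 in basal, 12.80 and 12.87 in ciliated and 6.81 and 7.20 in club arrays. The radial spoke gene Rsph4a was at 5.74 and 6.08 in basal, 12.47 and 12.31 in ciliated and 7.02 and 6.65 in club arrays. Of 20 ciliated cell markers 19 were lower and 2 lower against each type, with Cdhr4 at 6.39 and 6.51 in basal, 13.48 and 13.49 in ciliated and 7.23 and 7.32 in club arrays. Sntn, of the ciliary tip, was at 5.49 and 6.20 in basal, 12.83 and 12.51 in ciliated and 7.39 and 5.96 in club arrays, where 1 club array fell between the basal ones. For each of these genes the club arrays lay nearer to the basal than to the ciliated arrays.

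**Figure D4:**
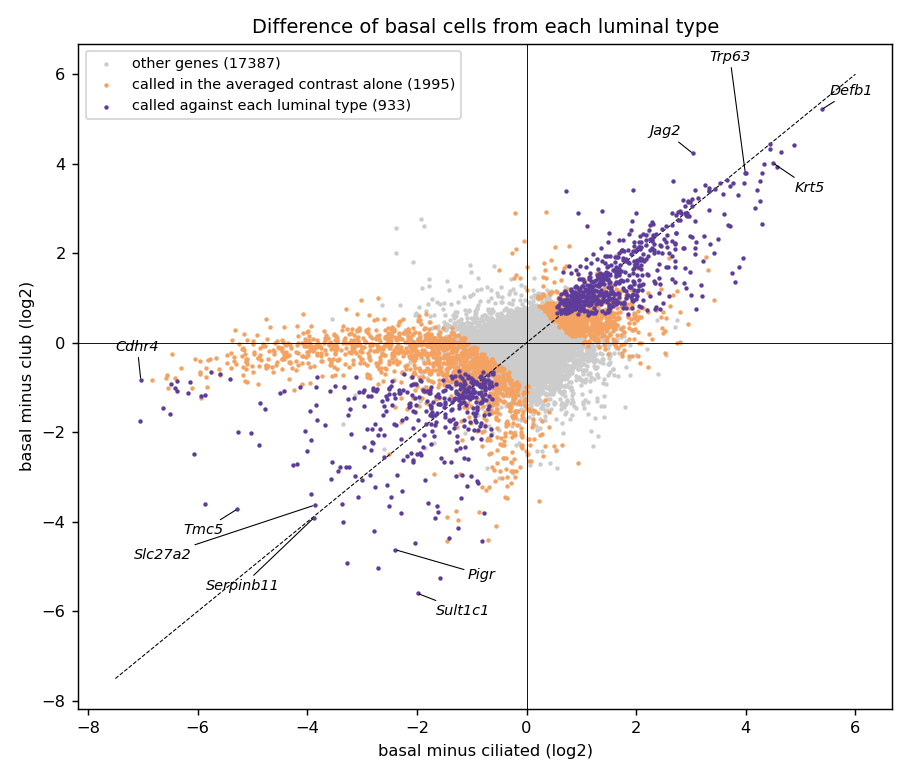
Difference of basal from ciliated cells (x axis, log2) against that of basal from club cells (y axis, log2), with 1 point per gene. Purple points are the 933 genes called against each luminal type in the same direction. Orange points are the 1995 called in the averaged comparison and not against each luminal type. Many of these were called against 1 luminal type, although the key says alone. Grey points are all others, and the dashed line marks equal differences. Defb1, Krt5, Trp63, Serpinb11 and Slc27a2 lie near the line, while the orange arm at the left holds genes lower in basal than in ciliated cells and near 0 against club cells.

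Among genes called against each luminal type, ciliated and club cells were more often called different from each other on the lower side. Ciliated and club means were within 0.5 units for 407 of the 566 higher and 167 of the 367 lower genes. The ciliated minus club difference passed for 106 of the higher genes (18.7 percent), 87 of them with club cells nearer the basal level, and for 150 of the lower genes (40.9 percent), of which 98 were higher in ciliated and 52 in club cells. Over all genes that share was 15.4 percent. A further 65 genes were called above one luminal type and below the other. The higher genes had a median mean level of 7.60 and the lower genes of 8.99, against 6.94 over all genes, and predicted or unnamed gene models made up 1.06 and 3.0 percent. The luminal values of a higher gene lie below its mean level, and those of a lower gene above it. Near background there is little room for ciliated and club cells to differ, so the shares do not compare the sides at like levels. The part of expression level in this asymmetry was not tested.

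The authors' deposited table of 50 genes enriched in basal cells was set beside these calls. All 50 were measured and lay above all luminal arrays, 35 were higher in the averaged comparison and 25 against each luminal type, with deposited basal z-scores from 1.5 to 1.82. Its basal z-scores rest on these samples, so the table is not independent evidence of the direction. Whether its columns of other samples also entered the choice of genes is not known here.

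The arrays were alike in scale, with medians from 6.79 to 6.92 over the per-gene values. Replicates lay over 1 unit apart in 613 genes for basal, 100 for ciliated and 193 for club cells. The club arrays were nearer to the basal than to the ciliated arrays: 1396 to 2161 genes lay over 1 unit apart between a club and a basal array, and 2324 to 2719 between a club and a ciliated array. Across the 20315 genes, which are not independent replicates, Pearson's r was 0.936 to 0.953 for the former pairs and 0.904 to 0.915 for the latter. Among the genes called against each luminal type, 11 higher and 12 lower ones had basal arrays over 1 unit apart, Dsc3 and Slc6a14 among them.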

How the data were processed

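RNA of 6 samples, 2 each of sorted basal, ciliated and club cells, was measured on microarrays. The deposited log2 values were made by the authors with robust multi-array averaging (RMA), per the submitters' processing notes, and stand as 1 value per gene symbol and array, aggregated by the authors per the file headers. The z-scores are the authors' deposited scores of enrichment, with no formula stated. The sources used here do not give the platform, build or rule of aggregation; every per-gene value equals that of a probe set within 1e-06, among 35556 probe sets. RMA already equalizes the arrays' distributions, so a shift of most genes in a cell type would not be seen. 18 columns of per-sample values that match no sample of the study were not used, and 1 line without a gene name was left out. No depth exists for arrays, whose number limits the precision.

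All 6 arrays were fitted with 1 mean per cell type in limma 3.58.1 (R 4.3.3, lmFit and eBayes), with Benjamini-Hochberg adjustment over all 20315 genes and a threshold of 0.05. Contrasts were basal minus the mean of the ciliated and club means, basal minus each, and ciliated minus club. The prior SD was 0.188, with 4.30 prior and 3 residual degrees of freedom. Members and gene lists were chosen with earlier results of these data known. Genes were named by rule: Trp63 and Krt5, the 15 largest gaps in each direction, the 8 largest with ciliated and club means within 0.5 units, the 3 largest differences within each list, and the 2 genes just inside and outside a gap of 0; predicted gene models were passed over, and every other gene in the text was named after its values were seen. Gene roles are background knowledge. Promoters came from RefSeq (GRCm38.p6), matched by symbol. Alternatives were other scalings, a filter on dim genes, other variance settings, a pooled luminal group, a replicate block, the probe sets, larger gaps and leaving out each array. A few genes that the rule names are not reported here.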

Additional observations from a re-analysis of the deposited data

Results flagged for a closer look

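For 21 of the genes named in the report, the difference from basal cells had the same sign in both luminal types and a different size, by limma's ciliated minus club contrast at an adjusted p under 0.05. The values below are ciliated minus club, in log2 units, from 2 arrays per type. Among genes lower in basal cells, the difference was larger in ciliated cells for Cdhr4 (6.21), Rsph4a (5.55), Agr3 (5.32), Aldh3b1 (2.60), Prom1 (1.76), Tmc5 (1.56), Hsph1 (1.29) and Oas2 (0.62). It was larger in club cells for Sult1c1 (-3.62), Muc5b (-2.32), Pigr (-2.23) and Acsl1 (-1.10). Among genes higher in basal cells, ciliated cells were the farther from basal cells for Ugt2b34 (-2.45), Rps12 (-1.56), Rpsa (-1.28), Aqp3 (-1.15), Igfbp3 (-1.15), Mki67 (-0.99) and Fads2 (-0.64). Club cells were the farther for Jag2 (1.19) and Wnt4 (0.94).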

How the results depend on the processing

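The sign of the difference held for 127 of the 130 named genes in every alternative that gave the gene a value. The probe sets gave no value per gene, and the filter on dim genes left some named genes out. With 1 array left out the difference spanned -1.14 to 0.12 for Cycs (reversed without basal replicate 2). For Itga2b it spanned -0.17 to 0.27 (reversed without basal replicate 1 or ciliated replicate 2, and with cyclic loess at -0.0646). For Sox9 it spanned -0.13 to 0.60 (reversed without basal replicate 1). None of these genes passed. Of 1814 recomputed values of named genes, 73 lost the call, 42 of them with the luminal arrays pooled as 1 group, and 30 gained it. That pooled fit called 317 genes higher and 133 lower, 450 in all, because the ciliated against club difference enters its spread. Leaving out 1 array gave 745 to 1619 genes higher and 1127 to 1746 lower (1872 to 3365 in all), 264 to 843 higher and 194 to 527 lower against each luminal type (495 to 1370), and 1587 to 3978 different between ciliated and club cells. Separated genes then numbered 3534 to 6306 above and 2474 to 4476 below (6008 to 10501), fewer arrays being easier to separate. Among probe sets 4881 lay above and 3356 below (8237 in all). A gap of at least 0.5 units left 581 above and 397 below (978), and a gap of at least 1 unit 248 and 140 (388). A difference of at least 1 unit against each luminal type left 368 higher and 239 lower genes (607). The count of translation factors called higher, 7, was 4 with array weights or median centring and 3 with an intensity trend. The share of separated genes above was 59.2 percent, 59.6 percent with quantile normalization applied again, 49.7 percent with median centring and 48.6 percent with cyclic loess. The share of calls that were higher was 44.3 percent, 47.4, 40.5 and 39.4 percent with these scalings, and 70.4 percent in the pooled fit; the cause was not tested. The replicate numbers pair no samples by the labels, and the deviations of same-numbered arrays correlated at 0.0521 (basal and ciliated), 0.265 (basal and club) and 0.260 (ciliated and club). With the replicate block 1526 genes were higher and 1874 lower (3400 in all), 644 and 471 against each luminal type (1115), and 3739 differed between ciliated and club cells; the block moved the translation factors called higher from 7 to 11 and kept 2911 of the 2928 calls and 928 of the 933.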

Other observations

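Families of genes that share the stem of their symbol were looked at after the values were seen, with no test of a family. There were 255 stems with at least 10 measured genes. The few given here were picked from them for their counts, so their shares are extremes of that search. Over all genes, 2.79 percent were higher and 1.81 percent lower against each luminal type, 15.1 percent lay above all luminal arrays and 10.4 percent below. Of 368 solute carriers (Slc), 24 were lower and 5 higher against each luminal type (median -0.0304), and these counts were 25 to 26 and 4 to 8 under the scaling alternatives. The lower ones include the zinc transporter Slc39a4 (-1.86 ± 0.20) and the choline transporter-like Slc44a4 (-2.28 ± 0.20), and the higher ones the glutamate transporter Slc1a3 (1.36 ± 0.17). Of 82 Atp genes, 8 were lower and none higher against each luminal type, among them the proton pump subunit genes Atp6v1b2 (-1.14 ± 0.16) and Atp6v1d (-1.29 ± 0.14), the copper pump Atp7b (-2.11 ± 0.17) and the secretory pathway calcium pump Atp2c2 (-2.07 ± 0.18). Of 12 mucins, 4 were lower against each luminal type and none was higher. Of 28 Sec genes 5 were lower against each luminal type, among them the coat protein genes Sec24d (-1.54 ± 0.16) and Sec23b (-1.42 ± 0.14). In the other direction, 11 of 14 carbohydrate sulfotransferases (Chst) lay above all luminal arrays, against 15.1 percent of all genes, and 5 were higher against each type, with Chst15 at 1.58 ± 0.18 and Chst3 at 1.58 ± 0.23; 7 lay above with cyclic loess. Of 20 semaphorins (Sema), 9 lay above and 4 were higher against each type, led by Sema6d (1.92 ± 0.18). Of 350 zinc finger genes (Zfp), 83 lay above and 11 below, with a median of 0.164 (0.101 to 0.156 under the scaling alternatives), and 7 were higher against each type, which is a smaller share than over all genes. The 5 higher solute carriers are likewise a smaller share of their family than over all genes.

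Some genes that differed from each luminal type are neighbours on their chromosomes. In the RefSeq gene order of GRCm38.p6, 7 runs of at least 3 adjacent measured genes were higher against each luminal type and 3 runs were lower. Trp63 stands in a run with P3h2, a collagen prolyl hydroxylase gene (2.79 ± 0.25), and Cldn1. The carboxylesterases Ces2e (2.92 ± 0.15), Ces2f (2.36 ± 0.16) and Ces2g (2.35 ± 0.20) form another. Others are Ephb2 with C1qb, C1qc and C1qa, the class II genes H2-Ab1, H2-Aa and H2-Eb1, and Trim29 with Oaf and Nectin1. The lower runs were Agr3, Agr2 and Tspan13, then Lipe, Cxcl17 and Ceacam1, and Lrrc74b, P2rx6 and Slc7a4.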
